A study of Macaca fascicularis with 23 samples.

Results

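The comparison described here set embryonic stem cell (ESC) lines of the cynomolgus monkey (Cm) against induced pluripotent stem cell (iPSC) lines after both had been converted to the naïve-like state. It used the 7 naïve-like libraries of the 23 in the series, chosen by their labels alone: 3 ESC libraries (CMK6, TRSK and CMK9) and 4 iPSC libraries (iPS-L3, -L6, -S6 and -S12). All 7 lines carried PiggyBac transposons with human KLF2 and NANOG under a doxycycline (Dox) promoter, and with a reporter (EOS-GFP/puroR) that also encodes the transactivator. They were selected with G418 and puromycin and grown without feeder cells on laminin-511 in K5cLD medium, which combines 5 chemicals (CHIR99021, forskolin, kenpaullone, Gö6983 and SB590885) with LIF and Dox. The same 7 lines were also measured in primed culture (bFGF/KSR medium) and as differentiated cells (K5c medium, from which LIF and Dox had been withdrawn), 7 libraries each.

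The groups differed in more than the way the cells were made. CMK6 and TRSK are male and CMK9 is female, and each is an established ESC line. The 4 iPSC lines came from 1 female foetus, the L lines from its liver and the S lines from its stomach, with episomal vectors for human OCT3/4, SOX2, KLF4, LIN28 and L-MYC and a small hairpin RNA against p53. The way the cells were made and the donor therefore cannot be told apart, and the lines serve as replicates although the iPSC lines share a donor. Some ESC cultures were also transfected with a DsRed vector. Each line has 1 naïve-like library, so p-values measure the spread between lines. In the library numbers of the titles, the naïve-like ESC libraries come first and the iPSC libraries after them. No preparation batch is named, and the order and the cell type cannot be told apart.

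In mouse, naïve pluripotent cells resemble the preimplantation epiblast and depend on LIF, which acts through JAK and STAT3, whereas primed cells resemble the epiblast after implantation and depend on FGF and activin signals. OCT3/4 (encoded by POU5F1) and SOX2 hold both states together as the core of the pluripotency network, and KLF2 and NANOG can push primate cells towards the naïve one. ESCs and iPSCs are made in different ways, the former from embryos and the latter by forced expression of such factors in somatic cells, and iPSC lines are known to vary with donor, clone and residual vector.

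Expression was measured by SC3-seq, which sequences the 3′ ends of cDNA amplified from 1 ng of total RNA. Values were deposited as RPM (reads scaled to the counted reads of the library). The 8415 genes analysed here carried 24.8% to 26.2% of the RPM of each naïve-like library, and 5551 of them are annotated on chromosomes 1 to 5, so the comparison covers part of the transcriptome. The step between RPM values put the depth at 1158000 to 2888000 reads in the ESC libraries and 902000 to 5619000 in the iPSC libraries. A level of 3 reads, under which a gene was taken as not detectable, was 0.534 to 3.32 RPM, a floor that covers counting error only. Genes were compared as log2(RPM + 1) where this was above 4 (15 RPM) in at least 1 of the 7 libraries, which left 2477. Of these, 1644 were above 4 in all 7.

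All 7 libraries held the markers of pluripotent cells. The summed RPM of the 7 entries for pluripotency markers analysed here was 2180 to 2483 in ESC and 1651 to 2617 in iPSC libraries, against 0.587 in the somatic liver library and 0.973 in the stomach library. Of 7 hepatocyte markers analysed, 5 were at 0 in all naïve-like libraries (ALB among them), and the sum, nearly all of it AFP, was 0 to 19.9 RPM in ESC and 7.88 to 33.2 RPM in iPSC lines. The somatic liver library itself had a sum of 0 RPM, so these markers cannot tell whether a character of the source cells remained. Of 6 gastric markers 3 were at 0 throughout, and no line exceeded 1.04 RPM in sum. The 5 fibroblast markers summed to 109 to 391 RPM in ESC and 119 to 270 RPM in iPSC lines, against 5462 and 5987 RPM in the somatic libraries. The 5 analysed genes that were high in both somatic libraries and low in primed cells (DDR2, VCAM1, TINAGL1, TCF21 and LOC102122400) stayed under the filter in all 7 lines. None of 21 listed X- and Y-linked genes was among the analysed genes, so the sex of the lines was not checked.

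The naïve-like libraries were compared with the other libraries of the same lines as a check of the labels. Taking deviations from the mean of each medium over 2776 genes, all 7 naïve-like libraries were most like the differentiated library of their own line (r across genes 0.264 to 0.561). Against the primed libraries 3 of 7 were most like their own line and 6 of 7 like a line of their own cell type. The exception was naïve-like CMK9, which was nearest to primed iPS-S12. A display in the study lists TRSK, CMK9, iPS-L3 and iPS-L6 in another order than the deposited naïve-like columns do, which need not mean that any name is wrong. The columns were read by their deposited names, and if names had been attached in the other order, lines would cross between the groups and every comparison below would change. The differentiated columns are in the same order as the naïve-like ones, so the match to them does not bear on this, whereas the primed columns are listed alike in both. LOC102139111 had 217 to 342 RPM in the 3 primed ESC lines and 638 to 799 RPM in the 4 primed iPSC lines, and under the deposited names the naïve-like lines split the same way (208 to 231 and 512 to 600.2 RPM). This gene had the smallest p of all under those names, so its split in the naïve-like lines is no independent check of them.

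The nearest neighbour of a line was not always of its own cell type. The mean Euclidean distance over the 2477 genes was 40.0 between ESC lines (34.8 to 42.6, 3 pairs), 38.1 between an ESC and an iPSC line (31.3 to 46.2, 12 pairs) and 30.1 between iPSC lines (25.5 to 35.8, 6 pairs). TRSK lay nearest to iPS-S6 at 31.9, and CMK9 lay nearest to iPS-S12 at 31.3. CMK6 stood apart from all others, with its nearest line, TRSK, at 42.4. The pseudo-F of ESC against iPSC lines, the ratio of variation between to variation within the groups, was 1.69 (exact permutation test over 35 divisions, one-sided, p = 0.0857, smallest possible p 0.0286). It was 1.53 without CMK6 (exact permutation p = 0.133). The same ratio was 2.11 in primed libraries (exact permutation p = 0.0286) and 1.87 in differentiated ones (exact permutation p = 0.0857), and these ratios were not tested against each other.

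**Figure D1:**
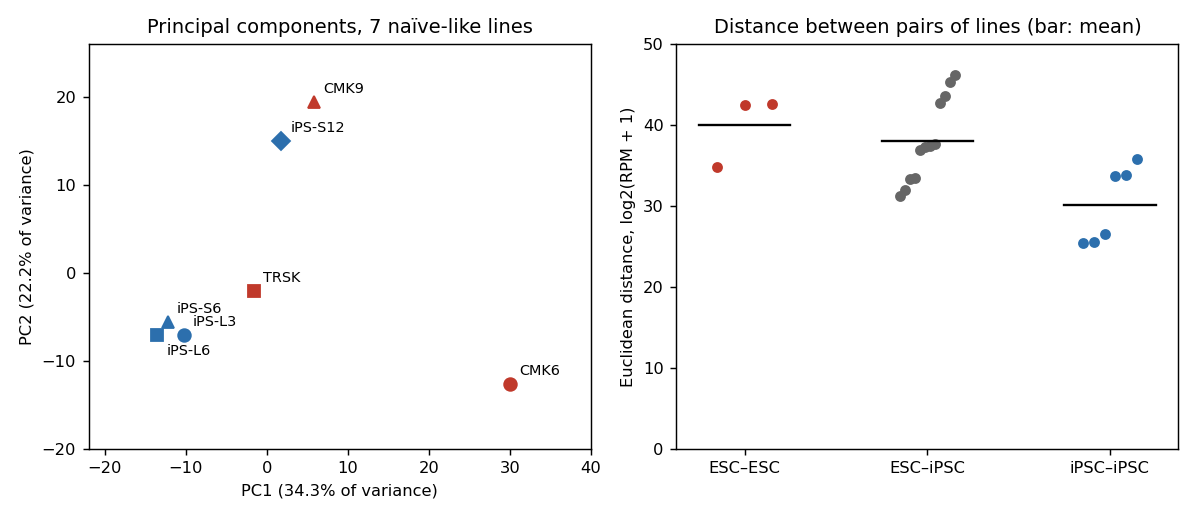
Left, scores of the 7 naïve-like lines on the first components of an unscaled PCA of log2(RPM + 1) over 2477 genes (ESC lines red, iPSC lines blue), which carry 34.3% and 22.2% of the variance. Right, Euclidean distance for each pair of lines with the mean as a bar; CMK6 lies alone at the right of PC1, and CMK9 and iPS-S12 lie together at the top of PC2.

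On PC1 the ESC lines ranged from -1.59 (TRSK) to 30 (CMK6) and the iPSC lines from -13.5 (iPS-L6) to 1.76 (iPS-S12), a difference of the means of 20.0 (two-sided p = 0.114 by exact permutation). The PC2 scores differed by 2.76 (exact permutation p = 0.857), since CMK9 at 19.4 and iPS-S12 at 15.0 lay on one side and CMK6 at -12.6 on the other. The spread over lines was wider in the ESC group, with a median SD over genes of 0.312 in ESC and 0.266 in iPSC lines on the log2 scale. The SD was larger over the ESC lines in 58.5% of the genes.

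Gene by gene, 7 of the 2477 genes passed limma's test (Benjamini-Hochberg adjusted p under 0.05), which is 0.283% of those tested. F11R and POU5F1 were higher in ESC lines (0.0807%), while CLIC4, NDUFA4, UCHL1 and the loci LOC102128416 and LOC102139111 were lower there (0.202%). Of these, LOC102128416 passed the filter through the iPSC lines alone. Where a gene passed the filter only through the group in which it was high, filter and test share the same values. Its p-value is then descriptive, here and in the other media. At an unadjusted p under 0.05 stood 287 genes (11.6%). In 298 genes (12%) the values of the groups did not overlap, with 133 higher (5.37%) and 165 lower (6.66%) in ESC lines. The median difference over all genes was -0.01, and 110 genes (4.44%) differed by more than 1 in either direction. In bulk libraries such as these, fewer cells of a type and less RNA per cell cannot be told apart. With 3 lines against 4, an exact permutation test of a single gene cannot give a two-sided p under 0.0571. When all 21 libraries of the 7 lines were fitted together, differentiated ones included, and the line was a block, 24 genes passed for the same comparison, 7 higher and 17 lower in ESC lines, and they held 5 of the 7 genes above but not F11R or POU5F1. The number of genes that passed was 2 without TRSK, 3 without CMK9, 3 without iPS-L3, 1 without iPS-L6 and 1 without iPS-S6, but 10 without CMK6 and 6 without iPS-S12.

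**Figure D2:**
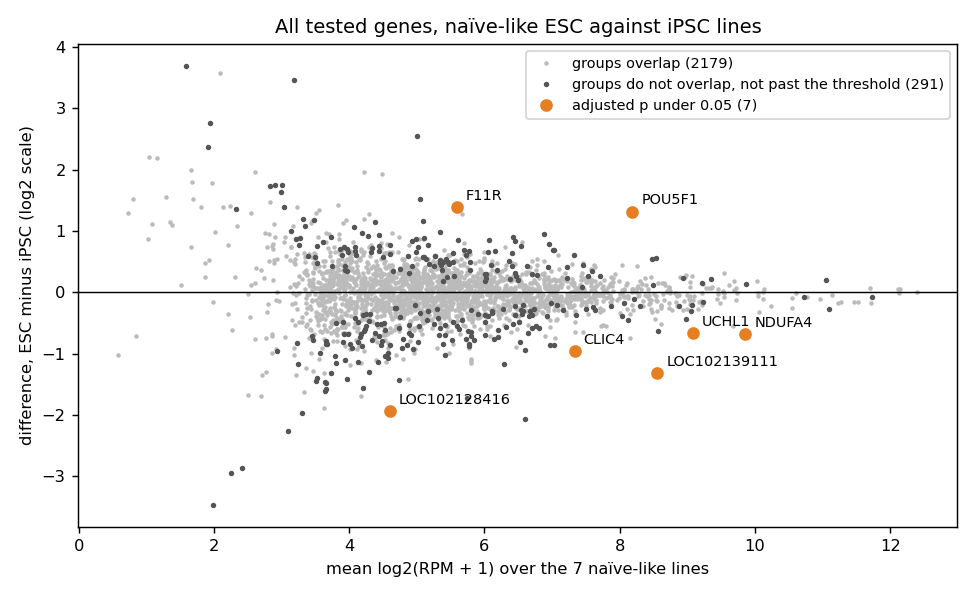
Difference between naïve-like ESC and iPSC lines (log2 scale, ESC minus iPSC) against the mean log2(RPM + 1) over the 7 lines, 1 point per tested gene. Most of the 2477 points lie near 0, with dark points (groups that do not overlap but did not pass) on both sides and the 7 genes that passed in orange.

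F11R (gene ID 101925695), which encodes a junctional adhesion molecule of epithelial tight junctions, had the smaller p of the genes higher in ESC lines. It stood at 86.6 RPM in CMK6, 76.5 in TRSK and 85.5 in CMK9, against 24.2 in iPS-L3, 34.4 in iPS-L6, 33.3 in iPS-S6 and 33.5 in iPS-S12. Every iPSC value lay below every ESC value, with iPS-L3 the lowest. The mean log2(RPM + 1) was 6.39 ± 0.10 (SD, n = 3) in ESC and 5.00 ± 0.23 (SD, n = 4) in iPSC lines, a difference of 1.39 (standard error 0.19, limma adjusted p = 0.0149) or 2.62-fold. The groups were also apart in primed culture, with 59.1 to 63.5 RPM in ESC and 5.31 to 25.9 RPM in iPSC lines (difference 1.79, adjusted p = 0.162). In differentiated cells they overlapped (difference 1.18, adjusted p = 0.39). The adjusted p of F11R in limma was 0.0513 without TRSK, 0.0512 without CMK9, 0.0602 without iPS-L6, 0.0829 without iPS-S6 and 0.269 with the line as a block.

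POU5F1 (gene ID 102115117), whose product OCT3/4 anchors the pluripotency network, was expressed in every line and more in the ESC lines. Its level was 575 RPM in CMK6, 469 in TRSK and 433 in CMK9. In the iPSC lines it was 202 RPM in iPS-L3, 183 in iPS-L6, 137 in iPS-S6 and 289 in iPS-S12. The groups did not overlap, and iPS-S12 came closest to the ESC lines. The mean was 8.94 ± 0.21 (SD, n = 3) against 7.62 ± 0.44 (SD, n = 4) on the log2 scale, a difference of 1.32 (standard error 0.22, limma adjusted p = 0.0379) or 2.49-fold. Primed ESC lines (253 to 427 RPM) also lay above primed iPSC lines (32.8 to 238 RPM), with a difference of 1.28 (adjusted p = 0.388), whereas after withdrawal of LIF and Dox the difference was -0.04 (adjusted p = 0.994). The call depended on every line but iPS-S12. Leaving out 1 of the others gave limma adjusted p of 0.0586 (CMK9), 0.0863 (CMK6), 0.0941 (iPS-S6), 0.097 (TRSK), 0.202 (iPS-L3) and 0.214 (iPS-L6), and the block on the line 0.54. OCT3/4 was among the reprogramming factors, and whether reads of the human vector were counted under the monkey gene was not tested. The paper reports that the vector carrying this factor and the p53 hairpin was still detected in iPS-L3, iPS-L6 and a stomach-derived line. Its text names that line as iPS-S6 and its supplement as iPS-S12. It also reports persistent expression of this factor from the vector in iPS-L3 and iPS-S6.

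**Figure D3:**
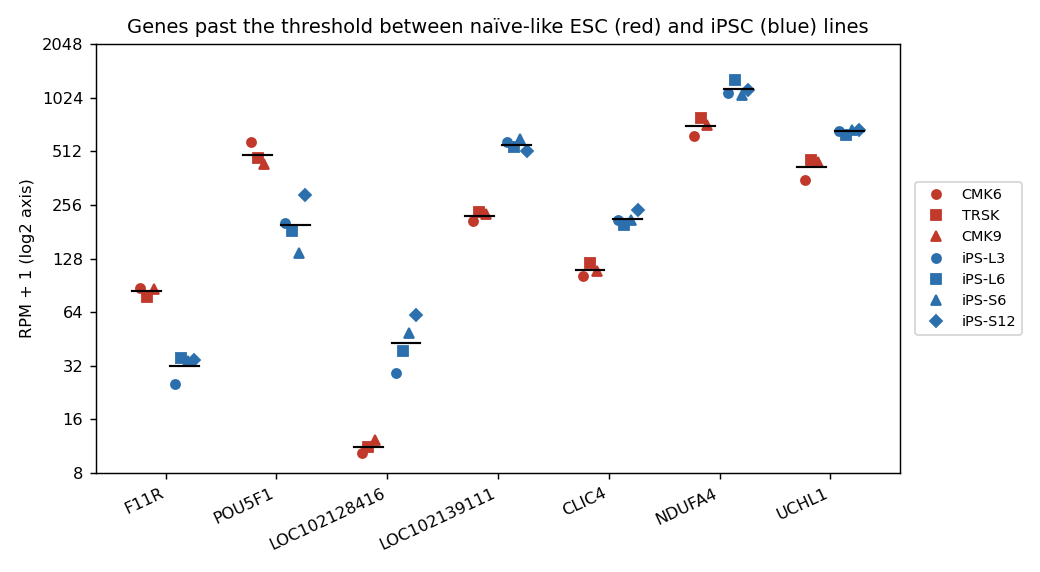
RPM + 1 on a log2 axis for the 7 genes that passed, 1 point per naïve-like line (ESC red, iPSC blue), with bars at the mean of the log2 values. In each gene all 3 ESC points lie on one side of all 4 iPSC points.

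LOC102139111, a locus for which no gene name was found, gave the smallest p of all. It had 208 RPM in CMK6, 231 in TRSK and 227 in CMK9, against 577 in iPS-L3, 540 in iPS-L6, 600 in iPS-S6 and 512 in iPS-S12. Both groups were narrow and far apart, with a difference of -1.32 (standard error 0.11, limma adjusted p = 0.000324), so that iPSC lines had 2.50-fold more. It was the only one of the 7 genes to pass under all 16 alternatives, including each line left out (adjusted p from 4.09e-05 to 0.0157). It passed in primed libraries too (217 to 342 RPM in ESC, 638 to 799 in iPSC lines, difference -1.29, adjusted p = 0.0235) and in differentiated ones (difference -1.18, adjusted p = 0.011). LOC102128416, also unnamed, was the lowest of the 7, with 9.35, 10.2 and 11.2 RPM in CMK6, TRSK and CMK9 and 28.3, 37.7, 47.9 and 60.5 RPM in iPS-L3, -L6, -S6 and -S12. Its difference was -1.93 (standard error 0.28, adjusted p = 0.0192). It lost its call without TRSK, CMK9, iPS-L6, iPS-S6 or iPS-S12 (limma adjusted p from 0.0512 to 0.0941) or with no filter (0.0551), and kept it with the block at 0.00302. LOC102128416 passed the filter through the iPSC lines alone, so its p-values are descriptive.

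CLIC4, an intracellular chloride channel protein, was at 101, 119 and 108 RPM in CMK6, TRSK and CMK9. In iPS-L3, -L6, -S6 and -S12 it was at 210, 197, 209 and 239 RPM, so iPSC lines had about 1.94-fold more (difference -0.96, standard error 0.13, limma adjusted p = 0.0149). CLIC4 was likewise lower in ESC lines without overlap in primed (-1.14) and differentiated cells (-0.72), where it did not pass (adjusted p = 0.098 and 0.134). Without CMK9, iPS-L3, iPS-L6 or iPS-S6 its adjusted p in limma was 0.0512 to 0.092.

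NDUFA4, a small subunit of the respiratory chain, had 619, 788 and 721 RPM in the ESC lines, in the order CMK6, TRSK and CMK9. The iPSC lines had 1085 (iPS-L3), 1282 (iPS-L6), 1060 (iPS-S6) and 1131 RPM (iPS-S12), a difference of -0.69 (standard error 0.11, limma adjusted p = 0.0379). The gene passed again in differentiated cells (-0.95, adjusted p = 0.0158) but not in primed ones (-0.39, adjusted p = 0.404), where TRSK at 1243 RPM lay within the iPSC range. UCHL1, a ubiquitin hydrolase best known from neurons, had 353, 454 and 445 RPM in CMK6, TRSK and CMK9, and 667, 631, 673 and 675 RPM in iPS-L3, -L6, -S6 and -S12. The difference was -0.67 (standard error 0.11, adjusted p = 0.0379). It was -0.43 in primed cells (adjusted p = 0.203) and -0.13 in differentiated cells, where the groups overlapped (adjusted p = 0.71). Leaving out any single line ended the call of NDUFA4 (limma adjusted p from 0.0513 to 0.174), and any line but CMK6 ended that of UCHL1 (from 0.0528 to 0.205). With the line as a block both passed, at 0.0169 and 0.00302.

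The next genes by p, in which the groups did not overlap, did not pass the test. Of 10 such genes with higher values in ESC lines, PIGP (GPI anchor synthesis) had 86.2 to 104 RPM in ESC and 44.3 to 57.4 RPM in iPSC lines (difference 0.86, limma adjusted p = 0.07). TBL1XR1, a component of the NCoR corepressor complex, had 42.4 to 63.9 RPM against 19.7 to 27.4 RPM (1.16, adjusted p = 0.07). LAMTOR5, a subunit of the Ragulator complex on lysosomes, had 159 to 189 RPM against 70.4 to 125 RPM (0.94, adjusted p = 0.0913, and 0.0265 without iPS-S12). These 3 genes thus differed by between 1.81- and 2.23-fold in mean level. TKT, the transketolase of the pentose phosphate pathway, differed by 0.97, GPATCH4 by 1.14 and PDIA4, a disulphide isomerase of the endoplasmic reticulum, by 0.69 (adjusted p = 0.102, 0.102 and 0.0938). The unnamed loci LOC102118214 and LOC102116629 differed by 0.75 and 0.67. LOC102125166 and LOC102133273 had near-equal values in every line (for example 467 and 464 RPM in CMK6), so reads may be shared between them and their differences of 0.55 each count as 1 uncertain observation.

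Among 7 further genes with lower values in ESC lines, IL1RAP, the accessory protein of the interleukin-1 receptor, was above the filter in every line. It had 18.7 RPM in CMK6, 50.02 in TRSK and 76.9 in CMK9, and 193, 197, 205 and 130 RPM in iPS-L3, -L6, -S6 and -S12 (difference -2.07, limma adjusted p = 0.07). CHAF1B, the p60 subunit of the chromatin assembly factor that places histones on new DNA, was at 1.04 RPM in CMK6, 2.27 in TRSK and 5.29 in CMK9. In iPSC lines it was at 12.3 to 18.5 RPM, a difference of -2.27 (adjusted p = 0.0913). CLCC1, a chloride channel of the endoplasmic reticulum, had 8.64 to 12.8 RPM against 24.6 to 31.03 RPM (-1.29, adjusted p = 0.07). BZW2, a regulator of translation, differed by -0.94, the centrosomal gene CEP63 by -1.14 and HDDC2 by -0.86. CLCC1, CHAF1B and CEP63 passed the filter through the iPSC lines alone, so their p-values are descriptive in each fit. With the line as a block, IL1RAP (adjusted p = 0.00594), CHAF1B (0.00302), CLCC1 (0.015), BZW2 (0.0317), HDDC2 (0.00594), PIGP (0.00594), TBL1XR1 (0.0151) and LOC102118214 (0.0233) passed as well. Without CMK6, IL1RAP (0.0314), BZW2 (0.0418) and HDDC2 (0.0217) passed in the 7-library fit, and IL1RAP also without CMK9 (0.0226).

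LOC102141564, annotated as a non-coding RNA, was the last of these. It was listed at 0 in all 3 naïve-like ESC lines and had 6.99 RPM in iPS-L3, 17.7 in iPS-L6, 10.8 in iPS-S6 and 7.48 in iPS-S12. It passed the filter through iPS-L6 alone, so no test is given. The lowest iPSC value was at least 2.70-fold the level of 3 reads in the shallowest ESC library. In primed and differentiated cells the iPSC lines had 4.07 to 13.03 and 5.31 to 10.6 RPM, and the ESC lines at most 0.154 and 0.105 RPM. The gene was thus above 3 reads in all iPSC libraries of all media and at or under it in all ESC libraries.

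Of the 36 listed pluripotency and naïve-state genes, 18 entries were analysed and 12 passed the filter. POU5F1 was the 1 member that passed the test. The groups did not overlap in 3 members (POU5F1, DPPA4 and L1TD1), all higher in ESC lines, where the background over all genes in that direction was 5.37%. The mean was higher in ESC lines in 9 members and lower in 3, and the median difference was 0.30 against -0.01 over all genes. DPPA4, a chromatin protein of early embryos, had 161, 186 and 159 RPM in CMK6, TRSK and CMK9. It had 126, 156, 55.1 and 83.2 RPM in iPS-L3, -L6, -S6 and -S12, so iPS-L6 came close to the ESC lines (difference 0.78, limma adjusted p = 0.338). L1TD1, an RNA-binding protein of pluripotent cells, had 158 to 188 RPM against 82.9 to 123 RPM (difference 0.69, adjusted p = 0.102).

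**Figure D4:**
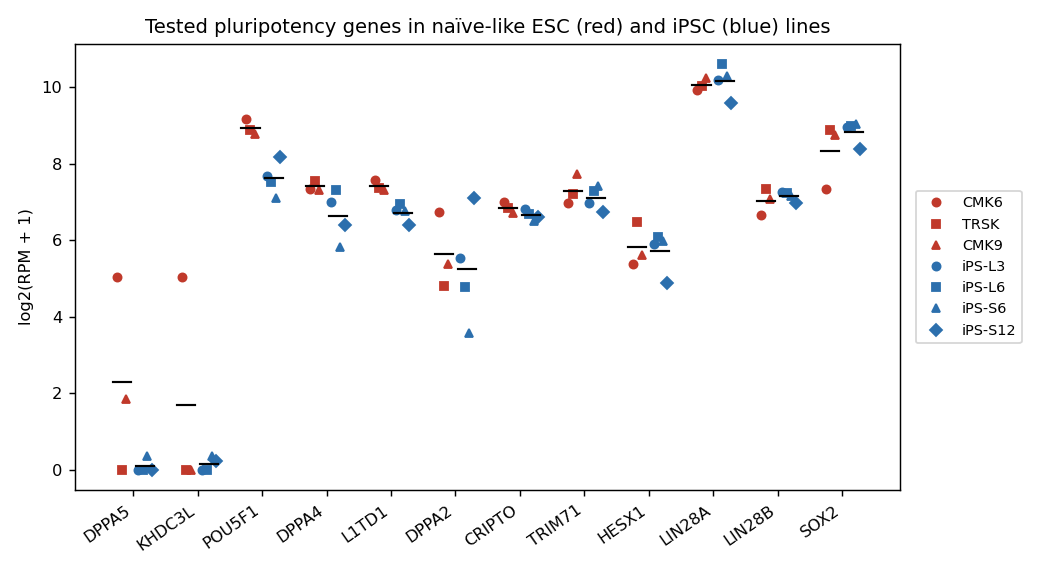
log2(RPM + 1) of the 12 tested pluripotency genes, 1 point per naïve-like line (ESC red, iPSC blue) with bars at the group means, ordered by the difference. POU5F1, DPPA4 and L1TD1 are the genes in which the groups do not overlap; DPPA5 and KHDC3L rise above 3 RPM in CMK6 alone.

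The other members overlapped. SOX2, the partner of OCT3/4, had 160 RPM in CMK6, 470 in TRSK and 427 in CMK9 against 332 to 521 RPM in iPSC lines (difference -0.52, limma adjusted p = 0.562). LIN28A, which blocks maturation of let-7 miRNAs, was the most abundant of the list, with 970 to 1200 RPM in ESC and 766 to 1545 RPM in iPSC lines (-0.10, adjusted p = 0.868). CRIPTO, a co-receptor for NODAL, had 104 to 126 RPM in ESC and 89.1 to 111 RPM in iPSC lines (0.20, adjusted p = 0.613). DPPA2, the partner of DPPA4, varied widely in both groups, from 27.1 to 105 RPM in ESC and from 10.9 to 135 RPM in iPSC lines. DPPA5 and KHDC3L, both of the oocyte and early embryo, reached 31.9 RPM in CMK6 and at most 2.59 RPM elsewhere, and they tested at adjusted p of 0.59 and 0.749. Without CMK6 the difference of KHDC3L was -0.15. DNMT3L, a regulator of germline methylation, stayed just under the filter with 14.5 RPM (3.96 on the log2 scale) in CMK6, and had 7.65 RPM in iPS-S12 and less in the others. KLF17 and ARGFX, markers of the human preimplantation epiblast and embryo, were listed at 0 in all 7 lines.

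Among the 5 factors delivered by the episomal vectors, POU5F1, SOX2, LIN28A and MYCL were analysed here. MYCL, which encodes L-MYC, was at 10.4 RPM in CMK6, 10.99 in TRSK and 10.4 in CMK9. It was at 22.3 in iPS-L3, 24.4 in iPS-L6, 18.7 in iPS-S6 and 14.8 RPM in iPS-S12, above all ESC lines (difference -0.84, standard error 0.28, limma adjusted p = 0.269). MYCL passed the filter through iPS-L3, iPS-L6 and iPS-S6 alone, so its p-value is descriptive. The 4 factors did not share a direction, with POU5F1 higher in ESC lines and the means of the other 3 lower, though LIN28A turned to 0.040 without iPS-L6. In primed culture the MYCL groups overlapped and the mean lay on the other side (0.74, adjusted p = 0.627).

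The lists for the other pathways gave few or no genes that passed. In the list of respiratory chain and mitochondrial ribosome genes, 50 were tested and NDUFA4 alone passed, with groups apart in 5 members higher and 7 lower in ESC lines, where all tested genes gave 5.37% and 6.66%. The higher ones were NDUFB5 and the ribosomal proteins MRPL18, MRPL20, MRPL55 and MRPS18A, and the lower ones included UQCRH, UQCRC1 and ATP5J2. Their median difference was -0.11. MRPL20 had 199 to 217 RPM in ESC and 138 to 177 RPM in iPSC lines (0.45, limma adjusted p = 0.205). Glycolysis gave 6 tested genes, none of them apart, and ENO1 stood at 1065 to 1168 RPM in ESC and 1075 to 1163 RPM in iPSC lines (difference -0.00, adjusted p = 0.993).

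For signalling through LIF, 5 genes were tested (JAK1, PIM1, PIK3CA, CISH and MCL1) and all overlapped, with differences from -0.26 to 0.20. Of 8 tested Wnt genes none was apart, and the median was -0.14. CTNNB1 (β-catenin) had 173, 359 and 603 RPM in CMK6, TRSK and CMK9 and 292 to 486 RPM in iPSC lines. The targets of p53, against which the iPSC vectors carried a hairpin, gave 9 tested genes, none passing and none apart. Whether the hairpin still acted in the lines where the paper detected its vector was not tested. The mean was higher in ESC lines in 7 of the 9, and the median difference was 0.42. ZMAT3 had 129, 87.2 and 193 RPM in CMK6, TRSK and CMK9 and 55.5, 55.4, 79.4 and 115 RPM in iPS-L3, -L6, -S6 and -S12 (0.82, adjusted p = 0.332). CDKN1A, which encodes the cell cycle inhibitor p21, was high in CMK9 (90.7 RPM) and iPS-S12 (45.9 RPM) and at 18.7 to 19.6 RPM in the other 5 lines.

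Imprinted genes, which can lose their marks in cultured pluripotent cells, gave 9 tested genes and no call. DDC was the 1 member of 9 with groups apart, a share near the 12% of all genes, at 14.7 to 23.1 RPM in ESC and 23.5 to 44.3 RPM in iPSC lines (-0.86, limma adjusted p = 0.262). MEST was high in TRSK (232 RPM), iPS-S6 (210 RPM) and CMK6 (152 RPM) and between 65.0 and 78.8 RPM in the others, a split that did not follow the cell type. Of 4 tested genes known to vary between iPSC lines, GSTM1 alone had groups apart, where all tested genes gave 12%. GSTM1 was lower in all ESC lines (4.15 to 6.76 RPM against 12.5 to 25.5 RPM, -1.58, limma adjusted p = 0.1). It passed the filter through the iPSC lines alone, so its p-value is descriptive. GSTM2 (0.87), GSTM3 (-1.89) and TRIM4 (-0.25) overlapped, with the mean of GSTM2 higher in ESC lines. GSTM genes are close copies whose reads may be shared.

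None of the 9 tested genes of antigen presentation and interferon response passed, and 1 of the 9 was apart, again near the 12% of all genes. It was MICB, a ligand of an activating receptor on natural killer cells (51.2 to 110 RPM in ESC, 28.8 to 49.3 RPM in iPSC lines, adjusted p = 0.275). Of 22 tested matrix and fibroblast genes none passed or was apart, with a median difference of 0.15. COL1A2 had 25.6, 60.3 and 65.6 RPM in CMK6, TRSK and CMK9, and 6.80, 11.1, 5.55 and 39.9 RPM in iPS-L3, -L6, -S6 and -S12 (1.92, adjusted p = 0.236). Of 7 tested neural genes none was apart, and the mean was higher in ESC lines in 5 and lower in 2. ROBO2 was the 1 member with an unadjusted limma p under 0.05 in the 7 libraries. It was lower in ESC lines (-0.88, limma adjusted p = 0.405). NES, an intermediate filament of neural progenitors, had 93.8 RPM in CMK6, 372 in TRSK and 359 in CMK9, against 144 to 204 RPM in iPSC lines (0.44, adjusted p = 0.693). Without CMK6, NES passed in limma (difference 1.09, adjusted p = 0.0314). The ESC lines lay above all iPSC lines in primed (0.97, adjusted p = 0.128) and differentiated cells (0.96, adjusted p = 0.0611). Of 3 tested genes for the primed state and early germ layers none was apart, and the 2 hepatocyte genes (AFP and APOM) and the 1 gastric gene tested (SOX2) overlapped.

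The other media gave further libraries of the same lines. In primed libraries 3 of 2513 genes passed (0.119%), all lower in ESC lines, and in differentiated libraries 3 of 2480 (0.121%), of which NPTX2 was higher. LOC102139111 passed in all 3 media. Leaving out 1 line gave between 1 and 10 genes in primed libraries (10 without CMK6) and 1 to 135 in differentiated ones (135 without iPS-S12, 10 without CMK9). LEFTY2, an inhibitor of NODAL, was at 2.46 to 3.94 RPM in primed ESC and 31.4 to 109 RPM in primed iPSC lines (difference -3.84, limma adjusted p = 0.00403). In the naïve-like state it was under the filter in all lines, with 0 to 6.91 RPM in ESC and 1.75 to 10.3 RPM in iPSC lines. TMEM200A, the remaining gene of the primed comparison, was likewise under the filter there (at most 13.3 RPM). In primed libraries LEFTY2 and TMEM200A passed the filter through the iPSC lines alone, so their p-values and calls there are descriptive. NPTX2, a neuronal pentraxin, had 53.4 to 87.2 RPM in differentiated ESC and 5.31 to 8.18 RPM in differentiated iPSC lines (3.24, adjusted p = 0.000425). It passed the filter of the differentiated libraries through the ESC lines alone, so its p-value and call there are descriptive. In the naïve-like lines it had 15.9, 16.3 and 6.91 RPM in CMK6, TRSK and CMK9 and 1.13 to 7.76 RPM in iPSC lines (1.95, adjusted p = 0.269), having passed the filter through CMK6 and TRSK alone.

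Groups were apart in 12.5% of the genes tested in primed and 12.1% of those tested in differentiated libraries. Of the 278 genes with groups apart in naïve-like libraries that were also tested in primed ones, 68 (24.5%) were apart on the same side there and 2 on the opposite side. These 68 were 24.5% of the 277 genes apart in primed libraries. For differentiated libraries the number was 59, or 21.4% of 276 and 21% of 281, with 2 on the opposite side. In 28 of 2224 genes tested in all media the groups were apart on the same side throughout, 12 higher and 16 lower in ESC lines. They included CLIC4, LOC102128416, LOC102139111, BZW2, CHAF1B, HDDC2 and TKT from the genes above, and outside them GSTA4, NIT2, QDPR and the histone deacetylase HDAC1 (0.51 higher in naïve-like ESC lines, limma adjusted p = 0.316), which were picked after their values were seen. The lines are the same in each medium, so this describes how lines differed rather than independent support.

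**Figure D5:**
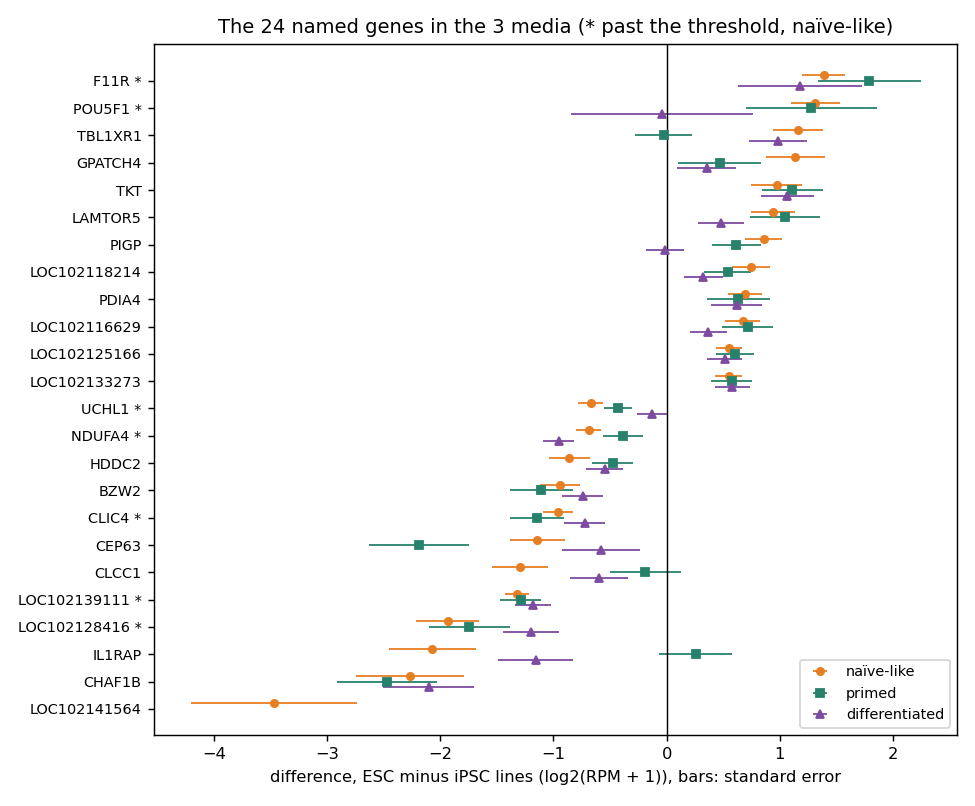
Difference between ESC and iPSC lines (log2(RPM + 1), ESC minus iPSC) of the 24 genes named by the rule, in naïve-like, primed and differentiated libraries, with standard errors as bars; LOC102141564 was at 0 in all naïve-like ESC lines and under the filter in the other media. TBL1XR1 (-0.03) and CLCC1 (-0.19) lie near 0 in primed cells, and PIGP (-0.01) and POU5F1 (-0.04) in differentiated cells.

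Some genes lay above a level of 3 reads in one cell type alone. The rule took more than 3 reads in each line of one type and at most 3 reads in each line of the other. Of the 8415 genes analysed, 2 met the rule for ESC lines and 12 for iPSC lines, most of them low. The rule counts a value of exactly 3 reads as absent, though such a gene may be present. LOC102125973 stood at the level of 3 reads in CMK6, TRSK and CMK9 (1.04, 1.14 and 2.59 RPM). Its CMK9 value was above that of iPS-L3 (2.27 RPM). NKX6-1, FAM78B and SSUH2 were also at that level in CMK9. Among the genes that met the rule for ESC lines, LOC102146709 was the one to pass the filter. It had 17.7 RPM in CMK6, 12.1 in TRSK and 7.77 in CMK9 and was listed at 0 in all 4 iPSC lines, so its lowest ESC value was at least 2.34-fold the level of 3 reads in the shallowest iPSC library. Of the 12 genes that met the rule for iPSC lines, LOC102141564, LOC102130180 and NKX6-1 passed the filter. NKX6-1, a homeodomain factor of pancreas and neural tube, had 0, 0.379 and 2.59 RPM in CMK6, TRSK and CMK9. It had 9.06, 11.1, 28.6 and 5.70 RPM in iPS-L3, -L6, -S6 and -S12. LOC102146709 and LOC102141564 met the same criterion in all 3 media, and ULBP1, a ligand of the receptor NKG2D, met it in primed libraries as well. The rule depends on the depth of each library. ULBP1 had 2.16 RPM in CMK9, under the level of 3 reads there (2.59 RPM). In iPS-L3 it had 1.51 RPM, above the level there (1.13 RPM). The genes that met the rule were picked by it after their values were seen, so no test is given.

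The response to conversion was compared next. The change from primed to naïve-like within each line was compared between ESC and iPSC lines over 2691 genes. With limma 0 genes passed, 152 (5.65%) had an unadjusted p under 0.05, and the fit without the pairing of media by line also gave 0. The smallest p belonged to IL1RAP. Its primed level was 24.9 to 36.6 RPM in ESC and 15.9 to 40.7 RPM in iPSC lines, so the groups overlapped before conversion. The naïve-like level was higher than the primed one by 2.25 to 3.05 on the log2 scale in the 4 iPSC lines, and the change was -0.40 in CMK6, 0.79 in TRSK and 1.05 in CMK9. The difference of the responses was -2.33 (standard error 0.38, adjusted p = 0.191). MYCL had changes of 0.155 in CMK6, -0.66 in TRSK and -1.90 in CMK9 and of 0.29 to 1.43 in iPSC lines (difference -1.57, adjusted p = 0.743).

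Within the iPSC lines, those from liver and from stomach did not differ at the threshold in any of the 2477 genes. By limma 0 genes passed, 66 (2.66%) had an unadjusted p under 0.05, and the same count of 0 came from the 4 iPSC libraries alone. The stomach-derived lines were also not each other's nearest, since iPS-S6 lay nearest to iPS-L3 at 25.5 and iPS-S12 nearest to CMK9. Along chromosomes 1 to 5, the median difference between ESC and iPSC lines ranged from -0.06 (chromosome 3) to -0.00 (chromosomes 1 and 4), and 10.1% to 14.6% of the tested genes on each had groups apart.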

How the data were processed

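SC3-seq libraries (75 bp single reads of the 3′ ends of cDNA) were aligned to macfas5 and quantified without strand by the authors with Cufflinks 2.2.0. The submitters' processing notes also name cutadapt 1.3 and TopHat 1.4.1. The deposited values are RPM, and the paper lists a Cufflinks option that scales to compatible hits rather than to all reads. Reads of overlapping, antisense or near-identical genes cannot be told apart. Depth was read from the step between RPM values and so stands for the reads used in that scaling. As 89.1% to 92.5% of values were whole multiples of it (tolerance 0.01 steps), no count test was run. One incomplete line was left out. Of the gene IDs, 5564 matched a RefSeq annotation, which gave 991 symbols, and 2851 did not. No column lacked a sample.

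Groups came from the sample labels. The value log2(RPM + 1) was tested with limma 3.58.1 (R 4.3.3, with a mean-variance trend) and Benjamini-Hochberg adjustment over all tested genes, at a threshold of 0.05. Fold changes on this scale understate the change of low genes. Distances and components were tested by exact permutation of the lines (Python 3.11.15, numpy 2.4.6, scipy 1.17.1). A media response was the naïve-like minus the primed value of a line. Same-named libraries across media are the same cell line, and the block fit gave them a correlation of 0.163. Per direction, the genes named were those past the threshold, filled up to 12 by the smallest p among genes whose groups did not overlap, with the genes the study discusses and the list members that passed. Groups, gene lists and this rule were chosen with earlier results of these data known. On simulated data for the naïve-like comparison over 2477 genes, 116 of 200 genes changed by 1 on the log2 scale and 172 of 200 changed by 2 were recovered, with 5 false calls each, and none was called with no change. The simulated lines and genes were independent, whereas the iPSC lines share a donor. These counts therefore do not give the error rate of the real comparison. Alternatives were another pseudocount, filters, scalings, models and each line left out. KLF2, NANOG and KLF4 were not analysed here. Some items are not reported here.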

Additional observations from a re-analysis of the deposited data

Results flagged for a closer look

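In 5 of 30 sets of 4 iPSC values for the named genes, 1 line lay far from the other lines, where chance flags about 1 in 20 groups, or 1.5 of 30. The measure is the gap to the nearest other line as a share of the whole range, set against Dixon's critical value. F11R was lowest in iPS-L3 at 24.2 RPM against 33.3 to 34.4 RPM in the others (0.91). UCHL1 was lowest in iPS-L6 at 631 RPM against 667 to 675 RPM (0.839). In iPS-S12, IL1RAP was lowest at 130 RPM against 193 to 205 RPM (0.869), and so was SOX2 at 332 RPM against 491 to 521 RPM (0.871). DPPA5 was listed at 0.292 RPM in iPS-S6 and at 0 in the others (1), a value within 3 reads of 0.

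For TBL1XR1 the change from the primed to the naïve-like library had opposite signs in ESC and iPSC lines. Its naïve-like level was above the primed one in all 3 ESC lines (0.14 in CMK6, 0.32 in TRSK and 1.09 in CMK9 on the log2 scale) and below it in all 4 iPSC lines (-0.93 in iPS-L3, -0.39 in iPS-L6, -0.26 in iPS-S6 and -1.10 in iPS-S12). The mean response was 0.52 in ESC and -0.67 in iPSC lines, a difference of 1.19 that did not pass over all genes (limma adjusted p = 0.743). The gene was named for the split of its naïve-like values. These values also enter the response, so the response is no separate evidence.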

How the results depend on the processing

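The 7 genes that passed in naïve-like libraries became 27 when all 21 libraries were fitted without a block. The number was 24 with the line as a block (the pairing of libraries of 1 line), and 1 to 10 with 1 line left out. With female lines only, 1 ESC line (CMK9) stood against 4 iPSC lines and the spread came from the iPSC lines, so no count is given. The difference was then 1.43 for F11R and 1.14 for POU5F1. As CMK6 and TRSK are male, sex and cell type are partly mixed in the main comparison. The counts in primed and differentiated libraries, 3 each, ranged from 1 to 10 and from 1 to 135, the latter without iPS-S12. Those for the conversion response and for liver against stomach were 0 to 0, and the pseudo-F ranged from 1.35 to 1.95. Over 30 named genes, 390 of 477 values under alternatives kept direction and side of the threshold, 53 no longer passed and 30 newly passed. In 4 the direction reversed: KHDC3L was -0.15 without CMK6 (range with 1 line left out -0.15 to 2.37) and -0.15 with female lines only, and LIN28A was 0.040 without iPS-L6 (range -0.30 to 0.040) and 0.067 with female lines only. POU5F1 also failed with no filter (adjusted p = 0.104), quantile normalization (0.0556), median centring (0.053) and no trend (0.13). The cause was not tested. Depth limits genes under about 3.32 RPM in the shallowest library.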

Other observations

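With the line as a block, 19 genes passed that did not pass in the 7 naïve-like libraries alone, and those not named above were picked after their values were seen. SERPINB9, an inhibitor of granzyme B, had 21.1, 14.8 and 54.4 RPM in CMK6, TRSK and CMK9. It had 68.0, 68.7, 74.8 and 173 RPM in iPS-L3, -L6, -S6 and -S12 (difference -1.73, limma adjusted p = 0.0289 with the block), with no overlap between the groups. ASH1L, a histone methyltransferase, had 8.31, 16.3 and 16.4 RPM in CMK6, TRSK and CMK9 and 1.13 to 4.67 RPM in iPSC lines. It was higher in ESC lines by 1.73 (limma adjusted p = 0.0401 with the block and 0.247 in the 7 libraries). ASH1L passed the filter through TRSK and CMK9 alone, so its p-values are descriptive. The ubiquitin-conjugating enzyme gene UBE2G2 (-0.88), PTTG1IP (-0.87), ZNHIT1 (-0.70) and TMEM14C (-0.63) were lower in ESC lines in the same fit.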
